A study of Homo sapiens with 26 samples.

Results

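AQP3 and IGFL1 are 2 of the 19775 genes measured on 26 expression arrays of the breast cancer cell line MDA-MB-468, and they were read by 4 of 41091 probe sets that map to a single gene. AQP3 has the probe sets 39248_at, 203747_at and 39249_at, and IGFL1 has only 239430_at. Both genes were selected on their measured intensities, which were much lower in cells released from the gamma-secretase inhibitor DAPT and given control IgG than in cells kept in its solvent DMSO and, for both genes, lower than in cells kept in DAPT. Every difference that uses the control IgG, DAPT or DMSO arrays of that experiment is therefore given as a description with no test. Limma tests are given for 6 other comparisons, with p-values adjusted over all 19775 genes. In the agonism experiment these tests take their spread from all 6 groups, including the arrays that chose the genes.

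The agonism experiment held 6 groups of 3 arrays each. Plates of 5 groups first received 5 µM DAPT for 16 h, and the labels speak of a single plate that received 0.05% DMSO instead. All were washed and left in plain medium for 2 h, and cells were then given JAG1-Fc coated beads, 20 µg/ml of the agonist NOTCH3 antibody A13, Fc coated beads, 20 µg/ml control IgG, 5 µM DAPT or 0.05% DMSO for 24 h. DAPT or DMSO was added again at 22 h to its own plates only, so release from DAPT cannot be told apart from the lack of an addition at 22 h. The antagonism experiment gave cells, after 40 h of growth, 24 h of the blocking NOTCH3 antibody A4 at 10 µg/ml with 0.05% DMSO (2 arrays), 5 µM DAPT with 10 µg/ml control IgG (3 arrays), or that IgG with 0.05% DMSO (3 arrays, called control). The labels do not name separate cultures for the arrays of a group, so p-values measure only the spread between these arrays, which may be technical. All results come from 1 cell line.

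Notch receptors are cut by gamma-secretase after a ligand such as JAG1 binds, and the freed intracellular part joins the DNA-binding protein RBPJ to switch on target genes. DAPT blocks this cut, and washing it out lets cleavage resume. AQP3 is an aquaglyceroporin, a membrane channel for water and glycerol found in many epithelia and in the epidermis. IGFL1 is a small secreted protein of the insulin growth factor-like family, and IGFLR1 is a membrane receptor that binds it.

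The sequence just before each gene's start is shown because both genes were chosen for low intensity in the same plates, and the letters let their promoters be compared. They are the 250 bases upstream of the start in RefSeq (GRCh38.p14), printed 5′ to 3′ along the gene's own strand, at chr9:33447594-33447843 on the minus strand for AQP3 and chr19:46229492-46229741 on the plus strand for IGFL1. Capitals mark matches to the 5 motifs searched on both strands: the core bound by RBPJ, which is TGGGAA, the AP-1 motif, which is TGANTCA, the TATA box, searched as TATAAA, the GC box, searched as GGGCGG, and the aryl hydrocarbon receptor core, which is GCGTG.
AQP3: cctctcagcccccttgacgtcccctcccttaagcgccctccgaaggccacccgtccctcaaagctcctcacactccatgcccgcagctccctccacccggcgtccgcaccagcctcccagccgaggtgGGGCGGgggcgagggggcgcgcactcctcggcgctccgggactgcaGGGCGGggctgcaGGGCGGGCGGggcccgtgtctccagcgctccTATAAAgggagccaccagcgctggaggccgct
IGFL1: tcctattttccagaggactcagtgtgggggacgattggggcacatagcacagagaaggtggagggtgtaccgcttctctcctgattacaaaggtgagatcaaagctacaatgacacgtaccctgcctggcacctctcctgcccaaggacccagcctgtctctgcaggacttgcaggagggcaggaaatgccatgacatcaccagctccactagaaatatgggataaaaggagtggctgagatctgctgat

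The stretch before AQP3 held 1 TATA box, 32 to 27 bases upstream of the start, and 4 GC boxes whose first bases lay 122, 76, 63 and 59 bases upstream, the last pair overlapping. None of the 5 motifs occurred in the IGFL1 stretch, and the RBPJ core occurred in neither. Searched over the same 250 bases upstream of the start, 20.8% of 35116 promoters held the RBPJ core, 6.57% the AP-1 motif, 10.7% the TATA box, 42.6% the GC box and 32.2% the aryl hydrocarbon receptor core. G and C made up 73.6% of the AQP3 stretch and 52.8% of the IGFL1 stretch, against a median of 58.0% over those promoters. A match to a short motif does not show a bound site.

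The arrays were checked against the labelled line. EGFR and KRT5, markers of this basal-like line, had intensities of 10467 to 18902 and 3747 to 14348 over all arrays. The other measured markers on that list were KRT18 (13589 to 20000), KRT19 (14787 to 18873), CAV1 (805 to 3817) and VIM (354 to 1900). The progesterone receptor PGR read 53.1 to 124 and the estrogen receptor ESR1 178 to 335. The growth factor receptor ERBB2 read 521 to 1010, above 67.2 to 76.7% of genes, and VIM overlapped this range. Of 3 leukocyte genes, PTPRC read 25.0 to 89.1, LYZ 36.5 to 170.4 and CD3E 194 to 399.7, the last above 46.4 to 53.8% of genes. Of 4 fibroblast markers, COL1A2, COL3A1 and DCN stayed at or below 412, and COL1A1 read 658 to 1199. Median log2 intensity was 6.84 to 6.88 per array in the agonism experiment and 7.60 to 7.65 in the antagonism experiment, so levels were compared only within an experiment. In the antagonism experiment 3 of 10 listed Notch targets were lower than in control and 7 did not pass, with DAPT and with A4 alike, where 0.354% and 0.101% of all genes passed in either direction. The list's median log2 change was -0.16 with DAPT and -0.17 with A4, against -0.0040 and 0.0047 over all genes. The targets that fell were MYC (-1.34 with DAPT, -1.15 with A4), NOTCH3 (-0.63 and -0.81) and HES1 (-0.50 and -0.65, log2 differences with limma). Of the others, HES4 (-0.44, adjusted p = 0.117) came closest with DAPT and NRARP (-0.31, adjusted p = 0.342) with A4, and HEYL with DAPT (0.087) and DTX1 with A4 (0.16) lay above 0. With DAPT, NOTCH3 and HES1 lost the call without any 1 of the DAPT arrays or without control array 1 or 3 (adjusted p up to 0.191 and 0.155). With A4, all 3 lost it without either A4 array, and NOTCH3 and HES1 also without control array 1 or 3 (adjusted p up to 0.528).

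AQP3 had its lowest intensities in cells given an agonist after washout and its highest in cells kept in DAPT. With 39248_at, which has the highest mean of the 3 probe sets and stands for the gene, JAG1-Fc bead arrays read 198, 238 and 231, A13 arrays read 236, 192 and 265, and Fc bead arrays read 477, 453 and 403. Control IgG arrays read 421, 502 and 509, DAPT arrays 2097, 2107 and 1997, and DMSO arrays 1805, 1649.9 and 1789.7. The 12 arrays of the 4 washout groups spanned 192 to 509 (median 334) and none reached the 6 DAPT and DMSO arrays, which spanned 1649.9 to 2107 (median 1901). The other AQP3 probe sets showed the same separation, at 319 to 419 against 600.1 to 895 for 203747_at and at 331 to 434 against 581 to 692 for 39249_at. In all, 5.41% of genes had all 12 washout arrays below the other 6, and since this contrast chose the genes, nothing is read from it. These values are from whole cultures, in which fewer cells with the transcript and less transcript per cell cannot be told apart.

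**Figure D1:**
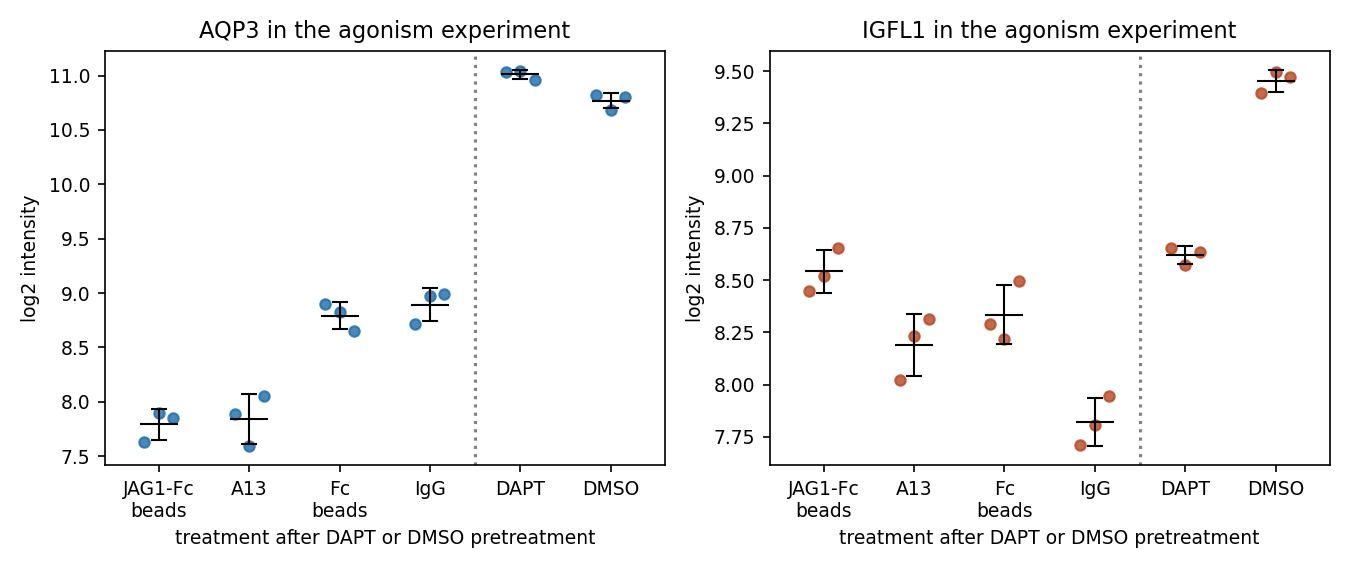
Log2 intensity of AQP3 (39248_at, left) and IGFL1 (239430_at, right) on each array of the agonism experiment, by treatment. Points are arrays, long bars are group means, whiskers are SD (n = 3), and the dotted line divides the 4 washout groups from the DAPT and DMSO groups. All 12 washout arrays of AQP3 lie below the other 6, while those of IGFL1 overlap them.

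In order of mean intensity, AQP3 stood at 222 ± 21.4 with JAG1-Fc beads, 231 ± 36.5 with A13, 444 ± 37.7 with Fc beads, 477 ± 48.9 with control IgG, 1748 ± 85.6 with DMSO and 2067 ± 60.9 with DAPT (SD, n = 3 each). JAG1-Fc bead and A13 arrays overlapped, and so did Fc bead and control IgG arrays, while the other neighbours in this order did not overlap. Over all genes, arrays did not overlap for 30.5% between A13 and Fc beads, for 40.5% between control IgG and DMSO and for 32.1% between DAPT and DMSO. The range of group means was 3.22 on the log2 scale for AQP3 with 39248_at, against a median of 0.27 over all genes. With this probe set 6 genes, AQP3 among them, had a range at least as wide. On the A13 array with the lowest reading, 63.6% of all 54675 probe sets were lower than 39248_at, and on the DAPT array with the highest, 93.7% were lower.

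Described without a test, AQP3 was 4.35-fold lower in control IgG washout cells than in DAPT cells, a log2 difference of -2.12 ± 0.10 (SE), and 3.68-fold lower than in DMSO cells (-1.88 ± 0.10). Each was the second largest fall of any gene in its comparison, and 9.77% and 30.6% of genes passed the limma threshold there in either direction. Between JAG1-Fc beads and DAPT the difference was -3.22 ± 0.10, or 9.32-fold lower. Against DMSO the JAG1-Fc bead cells differed by -2.98 ± 0.10, the largest change of any gene in that comparison. The other probe sets gave smaller falls: with 203747_at the JAG1-Fc bead cells were 2.12-fold lower than DAPT cells and 1.64-fold lower than DMSO cells, and with 39249_at 1.77-fold and 1.63-fold. Cells kept in DAPT read higher than DMSO cells, by 0.24 ± 0.10 for 39248_at, 0.37 ± 0.09 for 203747_at and 0.12 ± 0.07 for 39249_at.

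JAG1-Fc beads were set against beads that carry Fc alone, where neither group mean uses an array that chose the genes. The SE, interval and adjusted p still rest on the spread shared by all agonism groups. AQP3 fell, with a log2 difference of -0.999 ± 0.10 (95% interval -1.22 to -0.78, limma adjusted p = 6.01e-06), or 1.998-fold lower, with all 3 JAG1-Fc arrays below all 3 Fc arrays, a separation in either direction that 25.7% of genes showed. It was the 19th largest fall, in a comparison where 8.11% of genes passed in either direction and 5.14% were lower. This rests on 39248_at: 203747_at gave -0.095 ± 0.09 (adjusted p = 0.670) and 39249_at -0.14 ± 0.07 (adjusted p = 0.326), both with overlapping arrays.

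A13 was set against the same Fc bead arrays, so the comparisons share their controls. AQP3 fell here too, by a log2 difference of -0.95 ± 0.10 (95% interval -1.17 to -0.73, adjusted p = 4.18e-06) with no overlap of arrays, where 14.1% of genes passed in either direction and 10.3% were lower. The other probe sets gave -0.16 ± 0.09 (203747_at, adjusted p = 0.311) and -0.22 ± 0.07 (39249_at, adjusted p = 0.0593). Against control IgG, the soluble control of the antibody, the A13 arrays differed by -1.05 ± 0.10 with 39248_at, -0.16 ± 0.09 with 203747_at and -0.22 ± 0.07 with 39249_at, given without a test. JAG1-Fc beads and A13 were not told apart for AQP3: the difference was -0.049 ± 0.10 (95% interval -0.27 to 0.17, adjusted p = 0.859), in a comparison where 6.37% of genes passed and arrays of 26.5% did not overlap.

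**Figure D2:**
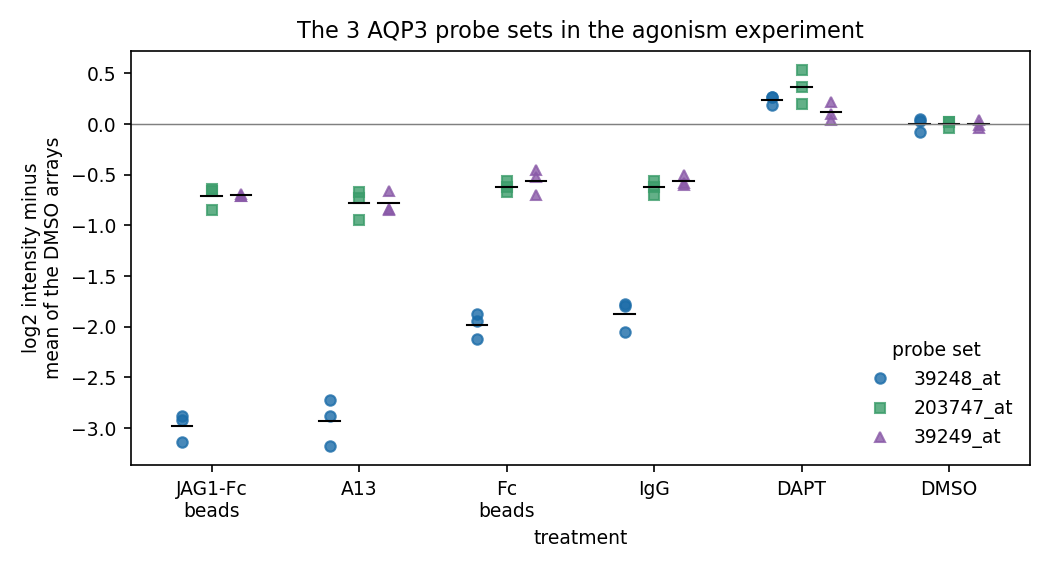
Log2 intensity of the 3 AQP3 probe sets on each agonism array, minus that probe set's mean over the DMSO arrays, by treatment. Points are arrays (n = 3 per group) and short bars are group means. All 3 probe sets lie below 0 in the 4 washout groups, and the JAG1-Fc bead and A13 arrays stand clear of the Fc bead arrays with 39248_at but overlap them with the others.

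The probe sets also differed in the size of the washout difference. Control IgG against DAPT was -2.12 with 39248_at, -0.99 ± 0.09 with 203747_at and -0.68 ± 0.07 with 39249_at. Against DMSO the values were -1.88, -0.63 ± 0.09 and -0.56 ± 0.07. All had the same sign. Over the 4 washout groups the means spanned 222 to 477 with 39248_at, 359.7 to 402 with 203747_at and 347 to 405 with 39249_at. Why the probe sets differ was not tested.

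IGFL1 was highest in DMSO cells and lowest in control IgG washout cells, and unlike AQP3 it was not at its lowest with an agonist. JAG1-Fc bead arrays read 349.7, 367 and 403, A13 arrays 260.0, 301 and 318, and Fc bead arrays 313, 298 and 361. Control IgG arrays read 209.8, 224 and 246, DAPT arrays 403, 381 and 397, and DMSO arrays 673, 722 and 710.4. The DMSO arrays stood apart above all others and the control IgG arrays stood apart below all others. Washout arrays as a whole (209.8 to 403, median 307) overlapped the DAPT and DMSO arrays (381 to 722, median 538).

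In order of mean intensity, IGFL1 stood at 226.6 ± 18.5 with control IgG, 293 ± 29.8 with A13, 324 ± 32.7 with Fc beads, 373 ± 27.4 with JAG1-Fc beads, 394 ± 11.4 with DAPT and 702 ± 25.8 with DMSO (SD, n = 3 each). From A13 up to DAPT each group overlapped the next in the order, while A13 and control IgG did not, as held for 31.1% of genes. The range of group means was 1.63 on the log2 scale, and 102 genes, IGFL1 among them, had a range at least as wide.

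Described without a test, IGFL1 in control IgG washout cells was 3.10-fold lower than in DMSO cells (-1.63 ± 0.09, the third largest fall of any gene) and 1.74-fold lower than in DAPT cells (-0.80 ± 0.09). DAPT cells were themselves 1.78-fold lower than DMSO cells (-0.83 ± 0.09), where 20.7% of genes passed in either direction. The 2 genes thus differed in DAPT: AQP3 read higher than in DMSO and IGFL1 lower, both with no overlap of arrays, as held for 32.1% of genes. Fc beads gave more IGFL1 than control IgG, by 0.51 ± 0.09, while AQP3 overlapped between these groups (-0.10 ± 0.10), and 20.2% of genes did not overlap there. Fc beads differ from control IgG in more than the bead, so which part of the treatment goes with this cannot be told apart.

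Among the comparisons with tests, IGFL1 did not pass for JAG1-Fc beads against Fc beads (0.21 ± 0.09, 95% interval 0.03 to 0.39, limma adjusted p = 0.166) or A13 against Fc beads (-0.15 ± 0.09, 95% interval -0.33 to 0.04, adjusted p = 0.324), and arrays overlapped in both. Against control IgG, the soluble control of the antibody, IGFL1 was higher with A13 by 0.37 ± 0.09, given without a test. The sign for A13 thus depends on the reference group. Between the agonists it passed: IGFL1 was higher with JAG1-Fc beads than with A13 by 0.35 ± 0.09 (95% interval 0.17 to 0.53, adjusted p = 0.0195), 1.28-fold, in a comparison where 4.72% of genes were higher. The call was lost without JAG1-Fc array 3 (0.29, adjusted p = 0.106) or without A13 array 1 (0.27, adjusted p = 0.106). The agonists were not matched in dose or form, one being a ligand on beads and the other a soluble antibody.

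**Figure D3:**
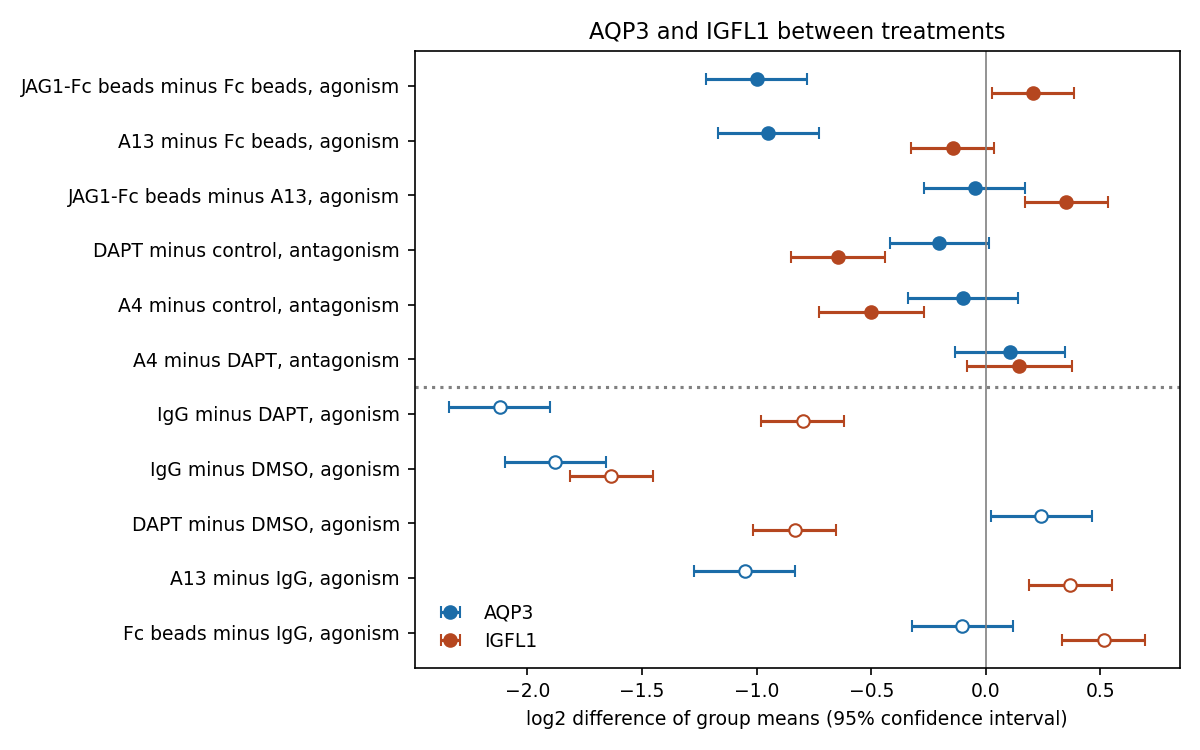
Differences in log2 group means of AQP3 (39248_at) and IGFL1, with 95% intervals. Filled points above the dotted line are the 6 tested comparisons, and open points below it use arrays that chose the genes and carry no test. AQP3 lies near -1 for both agonists against Fc beads, and IGFL1 lies below 0 for DAPT and A4 in the antagonism experiment.

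The antagonism experiment measured both genes in cells that had no DAPT pretreatment or wash. IGFL1 fell with DAPT: arrays read 371, 368 and 313 with DAPT, against 504, 549 and 593 in control, with no overlap, as held for 17.9% of genes. The difference was -0.65 ± 0.09 (95% interval -0.85 to -0.44, limma adjusted p = 0.0272), 1.56-fold lower and the 30th largest fall, where 0.354% of genes passed and 0.152% were lower. The call does not hold in a fit of these groups alone (adjusted p = 0.0787) or when any of 5 of the 6 arrays is left out: without DAPT array 1, 2 or 3 or control array 1 or 3 the adjusted p was 0.0681 to 0.132, with differences of -0.71 to -0.57.

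A4 arrays read 392 and 382 for IGFL1, below every control array (504, 549 and 593), as for 24.9% of genes. The difference, -0.50 ± 0.10 (95% interval -0.73 to -0.27), did not pass (limma adjusted p = 0.130), in a comparison where 0.101% of genes passed. A4 and DAPT arrays did not overlap, as for 34.7% of genes, but the difference of 0.15 ± 0.10 (95% interval -0.082 to 0.37) had an adjusted p of 0.698. Limma called 0 genes between A4 and DAPT, a share of 0%, with 1628 genes at an unadjusted p under 0.05.

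AQP3 did not pass in any antagonism comparison. Its arrays with 39248_at read 1615 and 1458 with A4, 1435, 1393 and 1454 with DAPT, and 1657, 1443 and 1856 in control. The control arrays overlapped those of both other groups. DAPT against control gave -0.20 ± 0.10 (95% interval -0.42 to 0.01, adjusted p = 0.412), A4 against control -0.099 ± 0.11 (95% interval -0.34 to 0.14, adjusted p = 0.844) and A4 against DAPT 0.10 ± 0.11 (95% interval -0.14 to 0.35, adjusted p = 0.792).

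**Figure D4:**
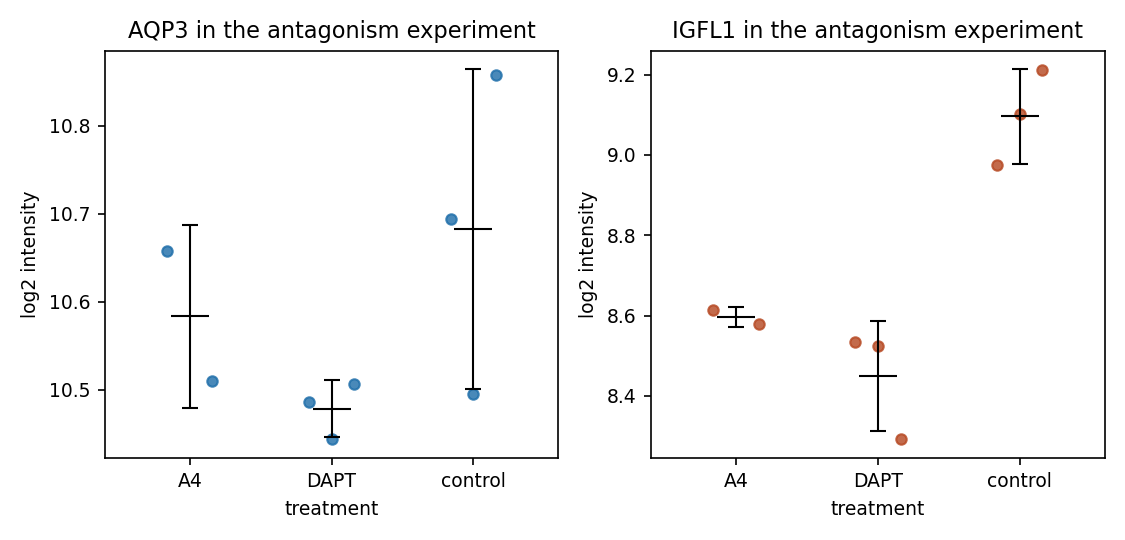
Log2 intensity of AQP3 (39248_at) and IGFL1 (239430_at) on each array of the antagonism experiment, by treatment, with group means and SD (A4 n = 2, others n = 3). All A4 and DAPT arrays of IGFL1 lie below the control arrays, while those of AQP3 overlap them.

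Relatives of both genes were examined from lists drawn up with earlier results known. Of the other 10 aquaporins measured, none passed with JAG1-Fc beads against Fc beads, with DAPT or with A4. In these comparisons 8.11%, 0.354% and 0.101% of all genes passed in either direction, so the count is near these shares. AQP11, a channel of internal membranes, was the only one to pass with A13 against Fc beads, where 10.3% of all genes were lower. It was lower (-0.25 ± 0.07, adjusted p = 0.0325, mean intensity 145 with A13 and 172 with Fc beads). The call was lost without Fc array 1 or 3 or any 1 of the A13 arrays (adjusted p up to 0.128). The other 10 had agonism group means of 49.1 to 244, and intensities of different probe sets are not comparable as amounts. The IGFL1 receptor IGFLR1 was lower with JAG1-Fc beads (-0.27 ± 0.08, adjusted p = 0.0321, mean 372 against 451 with Fc beads), as 5.14% of all genes were. It was also lower with A13 (-0.24 ± 0.08, adjusted p = 0.0464, mean 384), as 10.3% of all genes were. These calls were lost without Fc array 1 or 2, without any 1 of the JAG1-Fc arrays (adjusted p up to 0.166) and without A13 array 1 or 2 (adjusted p up to 0.211). IGFL2, a second family member, did not pass in either (0.089 ± 0.13, adjusted p = 0.768, and 0.030 ± 0.13, adjusted p = 0.927).

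Of 13 measured genes of glycerol handling, to which AQP3 supplies or removes glycerol, 2 passed with JAG1-Fc beads against Fc beads, both lower, where 8.11% of all genes passed and 5.14% were lower: MGLL, which frees glycerol from monoacylglycerol (-0.49 ± 0.09, adjusted p = 0.00161), and GPD1L, a glycerol-3-phosphate dehydrogenase-like enzyme (-0.31 ± 0.06, adjusted p = 0.00282). With A13, 7 were lower and 1 higher, where 10.3% of all genes were lower and 3.86% higher. The falls were led by MGLL (-0.67 ± 0.09, adjusted p = 3.10e-05), and DGAT2, which makes triacylglycerol, was the one that rose (0.31 ± 0.06, adjusted p = 0.00101). The list's median log2 change was -0.075 with JAG1-Fc beads and -0.20 with A13, against 0.0083 and -0.0082 over all genes. With DAPT in the antagonism experiment only GPD1L passed (0.45 ± 0.07, adjusted p = 0.0432), in the higher direction, as 0.202% of genes did, and not without any 1 of the DAPT arrays or control array 1 or 3 (adjusted p up to 0.247).

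Of 9 measured genes of the response to osmotic stress, 3 were higher with JAG1-Fc beads against Fc beads, where 2.97% of all genes were higher: NFAT5, the factor that drives this response (0.42 ± 0.07, adjusted p = 0.00098), the taurine carrier SLC6A6 (0.34 ± 0.08, adjusted p = 0.00967) and the amino acid carrier SLC38A2 (0.30 ± 0.07, adjusted p = 0.0127), the last named after its values were seen. SLC6A6 lost the call without JAG1-Fc array 2 or 3 (adjusted p up to 0.0555) and SLC38A2 without Fc array 2 or JAG1-Fc array 1 or 3 (adjusted p up to 0.0782). SLC12A2, a sodium, potassium and chloride cotransporter, was lower (-0.32 ± 0.07, adjusted p = 0.00381), as 5.14% of all genes were. With A13 2 of the 9 were lower, where 10.3% of all genes were: SLC12A2 (-0.46 ± 0.07, adjusted p = 6.61e-05) and LRRC8A, a subunit of volume-regulated anion channels (-0.34 ± 0.06, adjusted p = 0.00136). None of the 9 was higher with A13, where 3.86% of all genes were. NFAT5 (0.057 ± 0.07, adjusted p = 0.705), SLC6A6 (0.046 ± 0.08, adjusted p = 0.784) and SLC38A2 (-0.018 ± 0.07, adjusted p = 0.918) did not pass there. Against control IgG, described without a test, A13 gave 0.36 ± 0.07 for NFAT5, 0.28 ± 0.08 for SLC6A6 and 0.28 ± 0.07 for SLC38A2. SLC12A2 gave -0.49 ± 0.07 and LRRC8A -0.19 ± 0.06. Fc beads themselves differed from control IgG by 0.30 ± 0.07 for NFAT5, 0.23 ± 0.08 for SLC6A6 and 0.30 ± 0.07 for SLC38A2. The reading for A13 thus depends on the reference group. SLC12A2 was higher with DAPT in the antagonism experiment (0.48 ± 0.07, adjusted p = 0.0272), but not without any 1 of the DAPT arrays or control array 1 or 3 (adjusted p up to 0.161). Of the 10 Notch targets listed, 3 were higher with JAG1-Fc beads and 7 with A13, where 2.97% and 3.86% of all genes were higher, led by NRARP (1.01 ± 0.07, adjusted p = 4.07e-08, and 1.82 ± 0.07, adjusted p = 4.43e-12), a feedback inhibitor of Notch. HES1 lost its call with JAG1-Fc beads (0.22 ± 0.06, adjusted p = 0.0394) without any 1 of the Fc arrays or JAG1-Fc array 1 or 3 (adjusted p up to 0.154). NOTCH3 lost its call with A13 (0.49 ± 0.14, adjusted p = 0.0260) without Fc array 1 or 3 or A13 array 2 or 3 (adjusted p up to 0.138), and with JAG1-Fc beads it did not pass (0.46 ± 0.14, adjusted p = 0.0525).

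The search for similar profiles used only 39248_at for AQP3, and profiles like its other probe sets were not searched. Agonism group means spanned 7.79 to 11.01 on the log2 scale with 39248_at, 8.49 to 9.64 with 203747_at and 8.44 to 9.34 with 39249_at. The genes with profiles most like AQP3 over the 6 agonism groups were found by the mean absolute difference between log2 group means, each centred on its own mean. They were LINC00342 (0.46), AGR2 (0.47), NFKBIZ (0.48), PIP (0.49), PDZK1 (0.49) and DKK1 (0.50). Agonism group means were low for LINC00342 (52.7 to 230) and PDZK1 (48.6 to 351), while the others stayed at 220 or above. With the sign turned, ID4, which encodes an inhibitor of DNA binding, lay closer (0.19) than any of the similar genes, followed by LBH (0.34) and CTH (0.35). ID4 had mean intensities of 6791 with JAG1-Fc beads, 7165 with A13, 4185 with Fc beads, 3208 with control IgG, 690.5 with DAPT and 1303 with DMSO. It was high where AQP3 was low in this experiment. In the antagonism experiment ID4 and AQP3 instead both read below control. The log2 differences were -1.10 and -0.20 with DAPT and -0.78 and -0.099 with A4, and AQP3 passed in neither. AGR2 read above control there, by 1.02 with DAPT and 0.69 with A4.

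For IGFL1 the closest genes were the nuclear non-coding RNA MALAT1 (0.14), FTX (0.15), CAV1 (0.15), SNORA21 (0.16), GOLGA2P5 (0.16) and IL1A (0.16). Agonism group means were low for SNORA21 (40.5 to 94.1), IL1A (67.3 to 148) and FTX (83.4 to 212). They were higher for GOLGA2P5 (206 to 450), CAV1 (859 to 1710) and MALAT1 (1076 to 4157). The sign-turned ones were CLGN (0.22), FASN (0.22), which encodes fatty acid synthase, and CLDN1 (0.23). AQP3 and IGFL1 lay 0.90 apart by the same measure. Likeness here is a description over 6 group means of arrays that share one experiment. In the antagonism experiment, which was not used in the search, 3 of these 18 genes passed with DAPT against control, where 70 of all genes did (0.354%, and 11 to 1198 genes when 1 array was left out): AGR2 (1.02 ± 0.07, adjusted p = 0.00216), CAV1 (-0.76 ± 0.10, adjusted p = 0.0203) and ID4 (-1.10 ± 0.17, adjusted p = 0.0378). CAV1 and ID4 lost the call without any 1 of the DAPT arrays, and ID4 also without control array 1 (adjusted p up to 0.132 and 0.199). The 18 genes were chosen on profiles that include the DAPT and DMSO groups of the agonism experiment. Their ranges of group means were 0.71 to 3.38 on the log2 scale, against a median of 0.27 over all genes. The share over all genes is therefore no like measure for them, and nothing is read from the count.

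**Figure D5:**
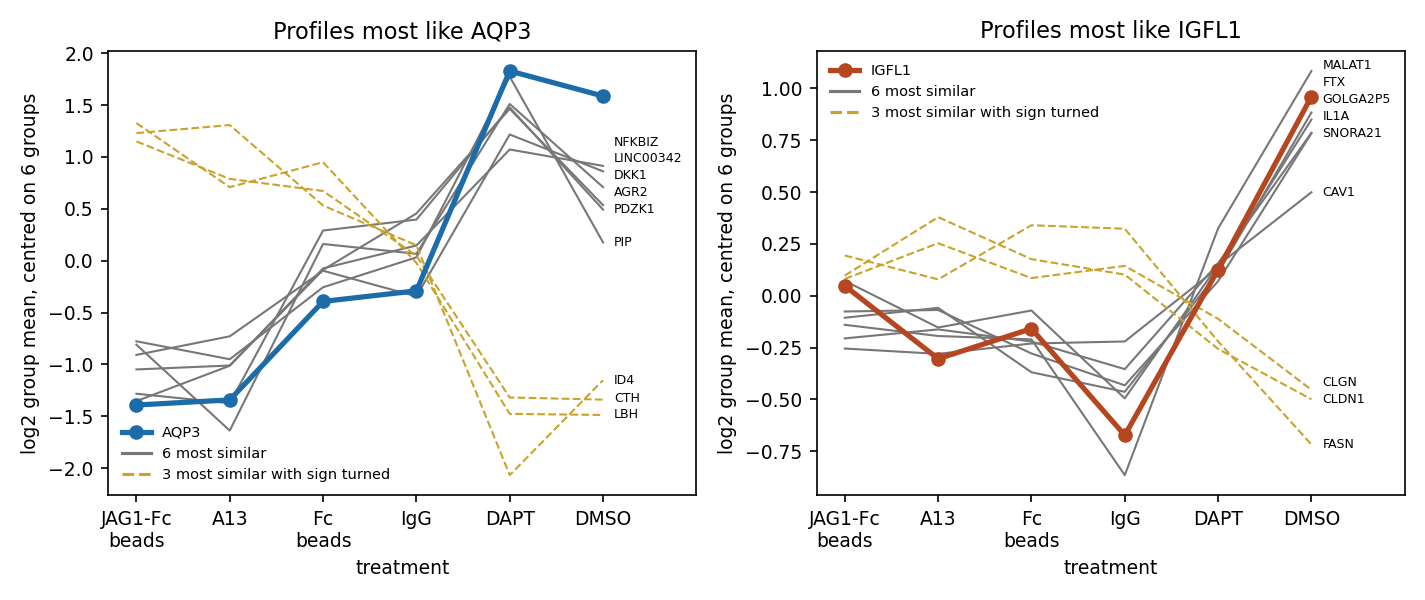
Log2 group means over the 6 agonism groups, each gene centred on its own mean, for AQP3 (left) and IGFL1 (right) with the 6 most similar genes (grey) and the 3 most similar with the sign turned (ochre, dashed). The AQP3 profile is highest in DAPT and the IGFL1 profile highest in DMSO.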

How the data were processed

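The authors' deposited values are linear intensities per probe set (7.12 to 32597), made with RMA, per the submitters' processing notes, which also name R 2.10; background and normalization settings are not given in the sources used here. They were turned into log2 values, since the design had assumed log2. Of 54675 probe sets 41091 had a single gene symbol, and 41037 matched the GRCh38.p14 gene table with 0 symbols changed. Each of 19775 genes was represented by 1 probe set, the one whose average over the 26 arrays was highest. A second fit over all single-gene probe sets gave the other AQP3 values. Limma 3.58.1 under R 4.3.3 was run on each experiment alone (lmFit, then eBayes on the contrasts; 5 residual degrees of freedom in the antagonism and 12 in the agonism experiment). Called means a Benjamini-Hochberg adjusted p under 0.05, and intervals are 95%. Median SE over genes was 0.0877 (DAPT against control) and 0.0811 (JAG1-Fc against Fc beads); array number limits precision. The labels give no replicate numbers, so arrays are numbered in listed order.

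Alternatives were median centring, repeated quantile normalization, an offset of 16, eBayes with trend and robust, genes above the median level, the compared groups alone, other probe sets and leaving out each array. The members and gene lists were chosen with earlier results of these data known. Named genes were the members, measured aquaporins and IGFL genes, 6 similar and 3 sign-turned profiles per member, up to 3 of the largest changes per other list, and MYC, HES1 and NOTCH3.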

Additional observations from a re-analysis of the deposited data

Results flagged for a closer look

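Each DAPT array read below the mean of the control arrays for AQP3 in the antagonism experiment, and above the mean of the DMSO arrays in the agonism experiment, with all 3 probe sets. In the antagonism experiment the difference did not pass the limma test with any of them (adjusted p = 0.412 for 39248_at, 0.484 for 203747_at and 0.874 for 39249_at), and DAPT and control arrays overlapped with 39248_at and 39249_at. In the agonism experiment it carries no test, because those arrays chose the genes. With 39248_at the log2 difference was -0.20 in the antagonism experiment (arrays -0.24 to -0.18) and 0.24 in the agonism experiment (arrays 0.19 to 0.27). With 203747_at it was -0.17 (-0.22 to -0.12) and 0.37 (0.20 to 0.54), and with 39249_at -0.047 (-0.075 to -0.012) and 0.12 (0.042 to 0.22). These are each DAPT array minus the mean of its control arrays. The difference between experiments was not tested. The experiments differed in the time with DAPT, the wash, the control IgG and the plating, which cannot be told apart. Median log2 intensity per array also differed, at 7.60 to 7.65 in the antagonism and 6.84 to 6.88 in the agonism experiment. IGFL1 was lower with DAPT in both experiments, by -0.65 (arrays -0.80 to -0.56) in the antagonism and -0.83 (arrays -0.88 to -0.80) in the agonism experiment. The agonism value uses arrays that chose the gene, so it is no independent repeat. The antagonism call was lost in 7 of 13 alternatives.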

How the results depend on the processing

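Over the 12 member tests, 145 of 164 alternatives kept direction and side of the threshold, 13 lost the call and 6 changed sign; of 336 alternatives for the 24 descriptions, 313 moved by less than 1 SD. The changes were few in kind. With 203747_at and 39249_at in place of 39248_at, AQP3 lost its calls for JAG1-Fc beads against Fc beads (-0.095 and -0.14) and A13 against Fc beads (-0.16 and -0.22), turned in sign for A4 against control (0.085 and 0.015) and JAG1-Fc beads against A13 (0.068 and 0.079), and moved for control IgG against DAPT (-0.99 and -0.68), control IgG against DMSO (-0.63 and -0.56), DAPT against DMSO (0.37 and 0.12), A13 against control IgG (-0.16 and -0.22), DAPT (-1.15 and -0.90) and DMSO (-0.78 and -0.78), JAG1-Fc beads against control IgG (-0.088 and -0.14), DAPT (-1.08 and -0.82) and DMSO (-0.71 and -0.70), and Fc beads against DAPT (-0.99 and -0.68) and DMSO (-0.62 and -0.56). Leaving out 1 array gave -0.18 to 0.055 for AQP3 between JAG1-Fc beads and A13, with a turned sign without JAG1-Fc array 1 (0.032) or A13 array 3 (0.055). IGFL1 with DAPT against control lost its call with the 2 groups alone (-0.65), with all probe sets in the fit (-0.65) and over left-out arrays (-0.71 to -0.57), and between JAG1-Fc beads and A13 over left-out arrays (0.27 to 0.41). IGFL1 moved for JAG1-Fc beads against DMSO with repeated quantile normalization (-0.999), and has no second probe set. The cause was not tested.

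Called genes ranged from 11 (without control array 1) to 1198 (without control array 2) around 70 for DAPT against control, and from 0 (the 2 groups alone) to 144 (trend and robust) around 20 for A4 against control. For JAG1-Fc beads against Fc beads they ranged from 897 to 2103 around 1604, for A13 against Fc beads from 1979 to 3252 around 2795, and for JAG1-Fc beads against A13 from 584 (without JAG1-Fc array 3) to 1883 around 1259. Leaving out an A4 array leaves 1, assumed to vary like the other groups. No paired analysis was possible because the labels give no replicate numbers. Of the other genes named, IGFLR1 lost its call in 6 of 12 alternatives with JAG1-Fc beads and 7 of 12 with A13, AQP11 in 5 of 11 with A13, GPD1L in 7, SLC12A2 in 6, ID4 in 5 and CAV1 in 4 of 12 with DAPT in the antagonism experiment, SLC38A2 in 4, SLC6A6 in 3 and HES1 in 7 of 12 with JAG1-Fc beads, and NOTCH3 in 4 of 12 with A13. These were added after seeing the data. NOTCH3 lost it in 7 of 12 with DAPT and 6 of 11 with A4, and HES1 in 6 of 12 and 5 of 11; MYC kept it in all 12 with DAPT and lost it in 3 of 11 with A4.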
